A study of Homo sapiens with 20 samples.

Results

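The CEACAM adhesion molecules measured here are 4 genes, CEACAM1, CEACAM5, CEACAM6 and CEACAM7, of 19775 genes named on the array. They were chosen by symbol: every probe set whose platform annotation gives 1 of these symbols, and no other, was taken, which gave 12 of 54613 non-control probe sets. CEACAM1 had 5 probe sets, CEACAM7 had 3, and CEACAM5 and CEACAM6 had 2 each. The suffix _x_at, which Affymetrix gives to probe sets that may bind transcripts of other genes, marked 2 of them, 211883_x_at and 211889_x_at, both of CEACAM1. Members of this family are close in sequence, so any of the 12 could also read a relative, and the probe sequences were not used here.

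RNA came from Caco-2 cells, an established line from a human colon tumour that serves as a model of the intestinal epithelium, which had differentiated for 5 days on culture inserts and were treated from the apical side. In a set of 14 arrays, labelled from 5 µg of RNA, 7 groups had 2 arrays each. Live L. acidophilus NCFM, B. lactis 420 or L. salivarius Ls-33 were given for 8 h, with 20 to 100 bacteria for each epithelial cell, cell-free supernatant of the same strains was given for 24 h at 10% of the volume, and the control was medium alone for 8 h. In a set of 6 arrays, labelled from 1 µg of RNA, cells received 5% cell-free supernatant of the enterohaemorrhagic strain E. coli O157:H7 for 24 h or medium alone for 24 h, with 3 arrays each. No group given bacterial broth alone was analysed here, and the probiotic supernatants have no medium control of their own duration in their set. The series describes the probiotic samples as run in duplicate, without saying whether these were separate cultures, so p-values measure only the spread between arrays.

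Carcinoembryonic antigen-related cell adhesion molecules are glycoproteins of the immunoglobulin superfamily that bind each other between neighbouring cells, and several of them are receptors for bacterial adhesins. CEACAM1 crosses the membrane and has splice forms with a long cytoplasmic tail whose tyrosine motifs recruit the phosphatases encoded by PTPN6 and PTPN11. CEACAM5, known as carcinoembryonic antigen, CEACAM6 and CEACAM7 have no cytoplasmic tail and are held in the membrane by a glycosylphosphatidylinositol (GPI) anchor, and in the colon they sit on the apical face of the epithelium.

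The 4 genes lie on chromosome 19, and the RefSeq promoters of GRCh38.p14, each 250 bases before to 50 bases after the start of the gene, are shown to set the starts of the 4 genes side by side. Capitals mark the E-box of the form CACGTG. CEACAM7, CEACAM5 and CEACAM6 follow one another on the chromosome, and 24 RefSeq protein-coding genes separate CEACAM6 from CEACAM1. The windows are chr19:41688221-41688520 for CEACAM7 (minus strand), chr19:41708376-41708675 for CEACAM5 (plus strand), chr19:41755280-41755579 for CEACAM6 (plus strand) and chr19:42528432-42528731 for CEACAM1 (minus strand).
CEACAM7: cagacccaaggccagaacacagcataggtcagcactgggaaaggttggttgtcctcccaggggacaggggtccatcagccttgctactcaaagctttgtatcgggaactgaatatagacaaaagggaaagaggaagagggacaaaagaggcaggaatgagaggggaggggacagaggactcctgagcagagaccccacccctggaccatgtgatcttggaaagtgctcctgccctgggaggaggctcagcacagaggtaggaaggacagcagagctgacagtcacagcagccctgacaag
CEACAM5: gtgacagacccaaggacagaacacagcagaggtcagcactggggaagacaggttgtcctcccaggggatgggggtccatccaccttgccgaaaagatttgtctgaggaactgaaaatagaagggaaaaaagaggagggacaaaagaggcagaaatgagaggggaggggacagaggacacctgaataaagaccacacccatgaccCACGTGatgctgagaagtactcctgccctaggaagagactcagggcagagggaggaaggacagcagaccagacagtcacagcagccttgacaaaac
CEACAM6: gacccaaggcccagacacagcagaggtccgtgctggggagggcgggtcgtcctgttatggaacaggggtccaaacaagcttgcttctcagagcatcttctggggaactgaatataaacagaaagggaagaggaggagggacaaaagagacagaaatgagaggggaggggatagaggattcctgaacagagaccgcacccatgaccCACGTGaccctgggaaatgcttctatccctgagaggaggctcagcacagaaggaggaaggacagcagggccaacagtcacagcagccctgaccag
CEACAM1: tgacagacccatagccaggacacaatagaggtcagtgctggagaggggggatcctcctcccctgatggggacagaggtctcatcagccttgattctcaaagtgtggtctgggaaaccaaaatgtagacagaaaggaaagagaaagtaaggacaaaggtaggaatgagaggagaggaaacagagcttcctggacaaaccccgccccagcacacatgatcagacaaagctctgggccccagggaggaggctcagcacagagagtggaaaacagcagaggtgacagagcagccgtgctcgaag

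The promoter windows of the family resemble each other. Identity after alignment was 81.4% between CEACAM7 and CEACAM5, 80.5% between CEACAM7 and CEACAM6 and 74.7% between CEACAM5 and CEACAM6. CEACAM1 shared 71.2% with CEACAM7, 68.2% with CEACAM6 and 65.6% with CEACAM5. The 4 windows were also aligned with promoters of 23 chromosomal neighbours, leaving out neighbours of the CEACAM and PSG families. Over these 92 pairs identity ranged from 40.6% to 53.9% with a median of 45.4%. The E-box form CACGTG stood 46 bases before the start in CEACAM5 and 45 bases before it in CEACAM6, and was in neither of the other windows. This form occurred, on either strand, in 7.26% of 35116 promoters of this length, and other forms of the E-box were not searched. The GC box GGGCGG, in 45.0% of promoters, was found in CEACAM6 and CEACAM1, as was the core of the interferon-stimulated response element, GAAANNGAA, in 8.11%. The NF-kB consensus, in 11.3%, was found in CEACAM1, 203 bases before the start. An AP-1 motif, TGANTCA, and a STAT motif, TTCNNNGAA, in 7.71% and 7.66% of promoters, were in none of the 4 windows. These matches describe letters and do not show binding.

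Values are log2 probe-set signals, so a difference of 1 is a doubling. Median signal was 2.66 to 2.72 on all arrays and arrays of 1 group correlated at 0.994 to 0.997 across probe sets. RNA integrity was read from beta-actin, as the signal at the 3' end minus that at the 5' end, which was 1.08 to 1.54 in co-cultures and 1.02 to 1.11 with probiotic supernatants, against 0.80 to 0.88 in 8 h medium. It was 2.12 to 2.22 with E. coli supernatant, against 1.90 to 2.17 in 24 h medium, and the same gap for GAPDH was 0.25 to 0.34 with E. coli supernatant, against 0.12 to 0.22 in 24 h medium. The part of these gaps in the results below was not tested. All 10 markers of intestinal epithelium lay above the 40th percentile of probe sets, and their mean level per array was 10.2 to 10.9. It was 10.81 to 10.86 with Ls-33 cells, 10.77 with B. lactis 420 cells and 10.67 to 10.69 with NCFM cells. In 8 h medium it was 10.69 to 10.74, and with probiotic supernatants 10.66 to 10.80. With E. coli supernatant it was 10.27 to 10.35, against 10.17 to 10.24 in 24 h medium. Of 9 leukocyte markers measured, PTPRC, CD3E, FCGR3B, MPO and ELANE lay below that percentile, with means of 1.74 to 2.08, and CEACAM8 (8.05), CD14 (4.22), ITGAM (4.18) and CEACAM3 (2.48) lay above it. Of 7 fibroblast and endothelium markers 5 lay above it, led by COL1A1 (11.05) and PECAM1 (8.72), and the mean level of that list was 4.99 to 5.20 in co-cultures, against 5.28 to 5.30 in 8 h medium, and 4.72 to 4.73 with E. coli supernatant, against 5.19 to 5.28 in 24 h medium. Of 5 goblet cell markers 3 lay above it, and MUC2 and CLCA1 did not. The part of these lists in the results was not tested.

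CEACAM7, an adhesion molecule of the colonic surface epithelium, was far higher with Ls-33 cells and with B. lactis 420 cells, and did not pass the test with NCFM cells. Its brightest probe set, 206199_at, read 9.15 and 9.19 with Ls-33 cells, 7.67 and 7.43 with B. lactis 420 cells and 4.87 and 4.32 with NCFM cells, against 4.62 and 3.74 in 8 h medium. The Ls-33 and B. lactis 420 arrays lay above both medium arrays, and the NCFM arrays overlapped them. It rose 31.8-fold with Ls-33 (log2 difference 4.99 ± 0.28 SE, limma adjusted p = 1.42e-10) and 10.4-fold with B. lactis 420 (3.37 ± 0.28, adjusted p = 4.27e-08). With NCFM the difference was 0.42 (95% interval -0.16 to 1.00, limma adjusted p = 0.292). That value rests on the medium arrays: it was 0.86 (adjusted p = 0.0479) without the first and -0.02 without the second.

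The other CEACAM7 probe sets moved in the same order. Probe set 206198_s_at read 7.40 and 7.27 with Ls-33 cells, 4.56 and 4.40 with B. lactis 420 cells and 2.65 and 2.81 with NCFM cells, against 2.44 and 2.35 in 8 h medium. It rose by 4.94 ± 0.19 with Ls-33 and by 2.08 ± 0.19 with B. lactis 420 (SE, limma adjusted p = 6.44e-13 and 1.20e-07). Its medium values lie next to the floor of 2.34, the 40th percentile that a probe set had to reach to be tested, so the size of these folds is uncertain. Probe set 211848_s_at rose by 3.93 with Ls-33 and by 1.43 with B. lactis 420, and differed by -0.45 with NCFM (limma adjusted p = 1.66e-10, 8.83e-05 and 0.150).

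CEACAM5, the carcinoembryonic antigen used as a serum marker of colorectal cancer, followed CEACAM7 at a smaller size. Probe set 201884_at read 10.56 and 10.50 with Ls-33 cells, 9.34 and 9.40 with B. lactis 420 cells and 8.02 and 8.15 with NCFM cells, against 8.27 and 8.03 in 8 h medium. The arrays of Ls-33 and B. lactis 420 stood apart from medium, while those of NCFM and medium interleaved. It rose 5.19-fold with Ls-33 (2.37 ± 0.09 SE, limma adjusted p = 6.81e-13) and 2.32-fold with B. lactis 420 (1.21 ± 0.09, adjusted p = 1.07e-08). With NCFM the difference was -0.07 (95% interval -0.26 to 0.12, limma adjusted p = 0.637). The second CEACAM5 probe set, 217291_at, read 2.11 to 2.91 on all 20 arrays, close to the floor, and was called in no comparison. Its correlation with 201884_at over the 14 arrays of the probiotic set was -0.22.

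CEACAM6, which on ileal epithelium serves as a receptor for adherent-invasive E. coli, changed less again. Probe set 211657_at read 12.19 and 12.13 with Ls-33 cells, 11.53 and 11.57 with B. lactis 420 cells and 11.12 and 10.93 with NCFM cells, against 11.19 and 11.13 in 8 h medium. All Ls-33 and B. lactis 420 arrays were above medium, and both NCFM arrays were below it by a small margin. It rose by 1.00 ± 0.06 with Ls-33 and by 0.39 ± 0.06 with B. lactis 420 (SE, limma adjusted p = 1.62e-10 and 4.45e-05), and differed by -0.14 with NCFM (adjusted p = 0.0793, and 0.00447 without the first NCFM array). Probe set 203757_s_at rose by 1.33 and 0.62 with the same strains (limma adjusted p = 1.09e-11 and 4.93e-07). With NCFM it read 9.64 and 9.57, against 9.88 and 9.94 in 8 h medium, and fell by 0.30 ± 0.06 (adjusted p = 0.00119).

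**Figure D1:**
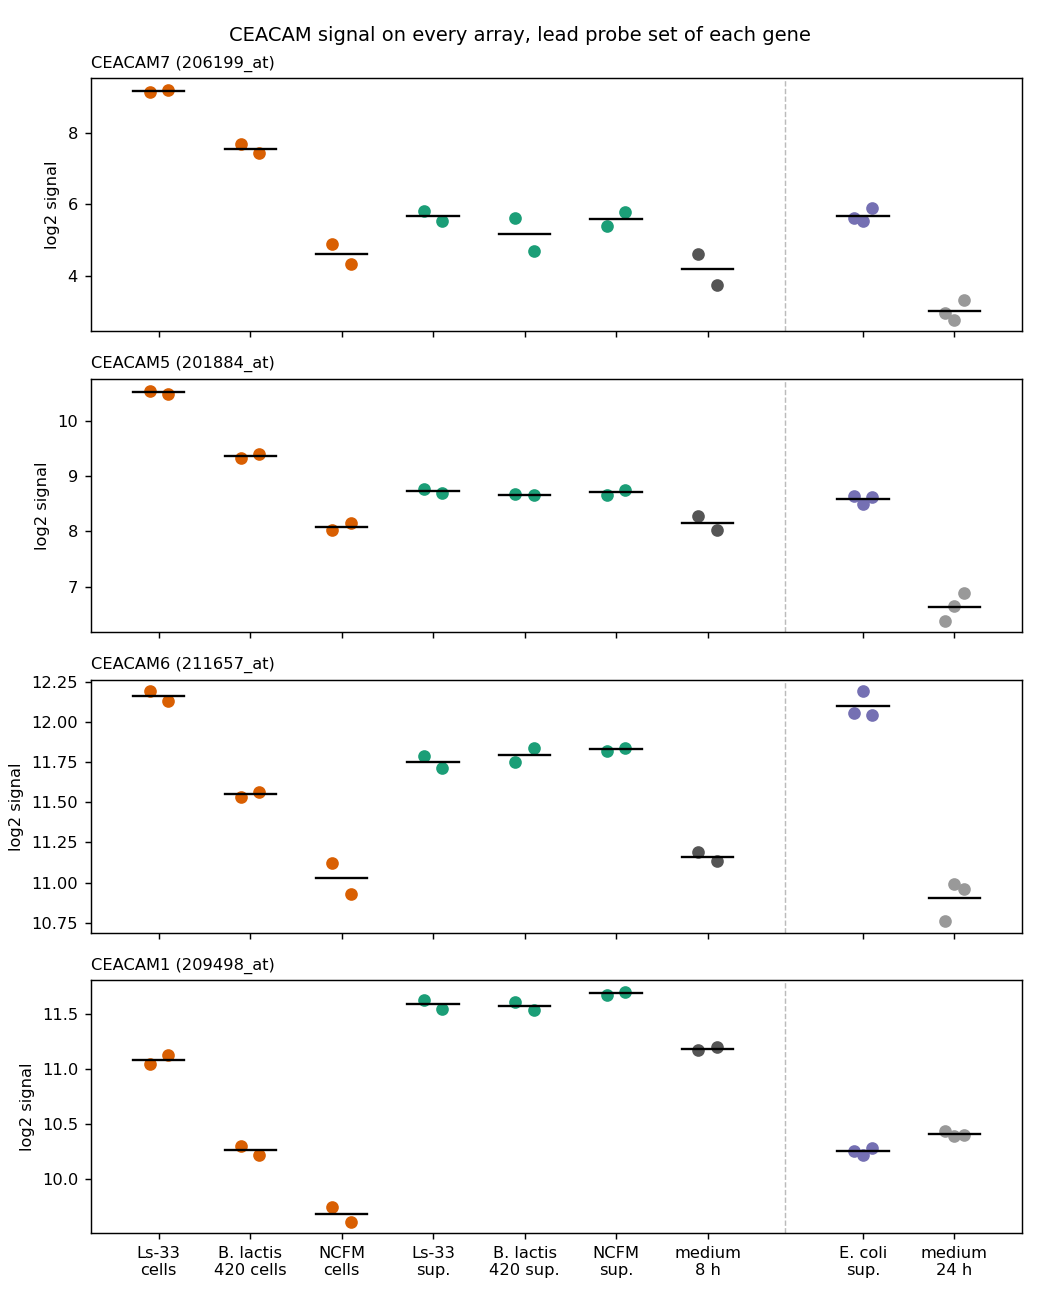
Log2 signal of the brightest probe set of each CEACAM gene on every array, by group, with treated groups to the left of the medium of their own array set; points are arrays and bars are group means. Within the probiotic array set, CEACAM7, CEACAM5 and CEACAM6 are highest with Ls-33 cells, and CEACAM1 is lowest with NCFM cells, at 9.75 and 9.62.

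CEACAM1, the member with a signalling tail, was lower with NCFM cells and with B. lactis 420 cells. Probe set 209498_at read 11.05 and 11.12 with Ls-33 cells, 10.30 and 10.22 with B. lactis 420 cells and 9.75 and 9.62 with NCFM cells, against 11.17 and 11.19 in 8 h medium. The NCFM and B. lactis 420 arrays lay well below medium, and the Ls-33 arrays were just below it. It fell 2.82-fold with NCFM (-1.50 ± 0.06 SE, limma adjusted p = 1.31e-12) and 1.89-fold with B. lactis 420 (-0.92 ± 0.06, adjusted p = 9.51e-10). With Ls-33 the difference was -0.10 (95% interval -0.22 to 0.02, limma adjusted p = 0.235).

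Of the other CEACAM1 probe sets, 206576_s_at read 10.18 and 10.15 with Ls-33 cells, 9.12 and 9.07 with B. lactis 420 cells and 8.37 and 8.11 with NCFM cells, against 10.35 and 10.35 in 8 h medium. It fell 4.31-fold with NCFM and 2.38-fold with B. lactis 420 (limma adjusted p = 7.39e-13 and 8.30e-10). With Ls-33 it differed by -0.18 (adjusted p = 0.0900, and 0.0341 in a fit of only the groups compared). The cross-hybridising probe sets 211883_x_at and 211889_x_at fell as well, by 1.89 and 2.06 with NCFM and by 1.19 and 1.09 with B. lactis 420. With Ls-33 they differed by 0.14 and -0.02 (adjusted p = 0.348 and 0.954), where 211883_x_at reached 0.32 (adjusted p = 0.0440) without the first Ls-33 array. Probe set 210610_at, read at 3.76 to 4.68 on the 20 arrays, was not called in any co-culture.

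**Figure D2:**
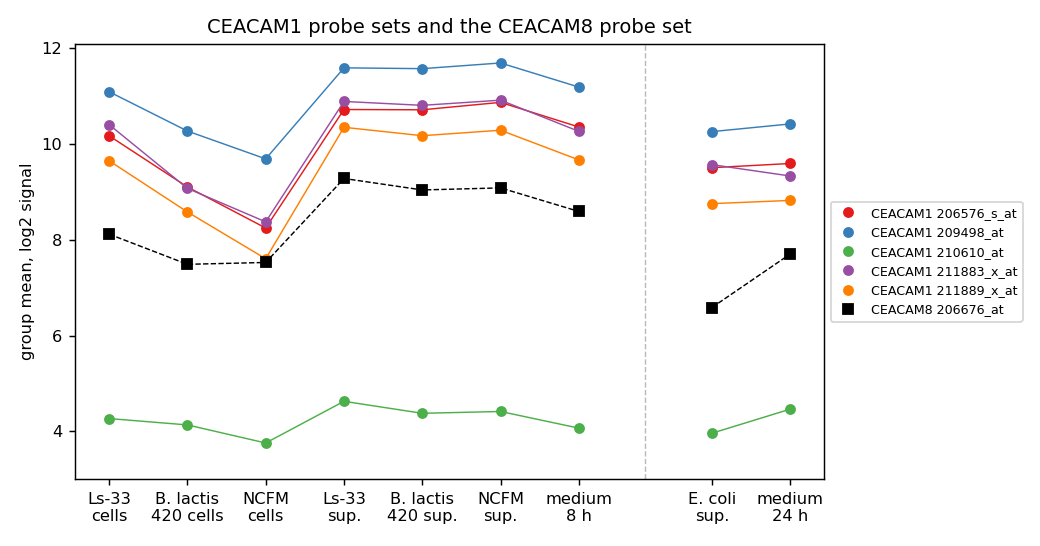
Group means of log2 signal for the 5 CEACAM1 probe sets (circles) and the CEACAM8 probe set (squares), by group; lines join the points of an array set to guide the eye, and levels of different probe sets are not to be set against each other. Within the probiotic set the 2 _x_at probe sets are lowest with NCFM cells and next lowest with B. lactis 420 cells, as are 206576_s_at and 209498_at. Group means of 210610_at stay between 3.76 and 4.63.

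Counted over probe sets, 6 of the 12 were called higher and 0 lower with Ls-33 cells, where 14.2% of the 32768 probe sets tested were called higher and 12.6% lower. With B. lactis 420 cells 6 were higher and 4 lower, against 13.9% and 12.0% of all tested. With NCFM cells 0 were higher and 5 lower, against 13.4% and 15.0%. All 12 passed the filter on low signal. They read only 4 genes, and 5 of the 12 are of CEACAM1, so counts and medians over probe sets repeat genes. The calls came from 3 genes with Ls-33 cells and 4 with B. lactis 420 cells. With NCFM cells they came from 2, CEACAM1 and CEACAM6. The median log2 difference of the 12 was 0.60 with Ls-33, 0.23 with B. lactis 420 and -0.30 with NCFM, beside medians between -0.01 and 0.01 over all probe sets tested. These 3 comparisons share the 8 h medium arrays. In bulk RNA, fewer cells carrying a transcript and less transcript per cell cannot be told apart.

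**Figure D3:**
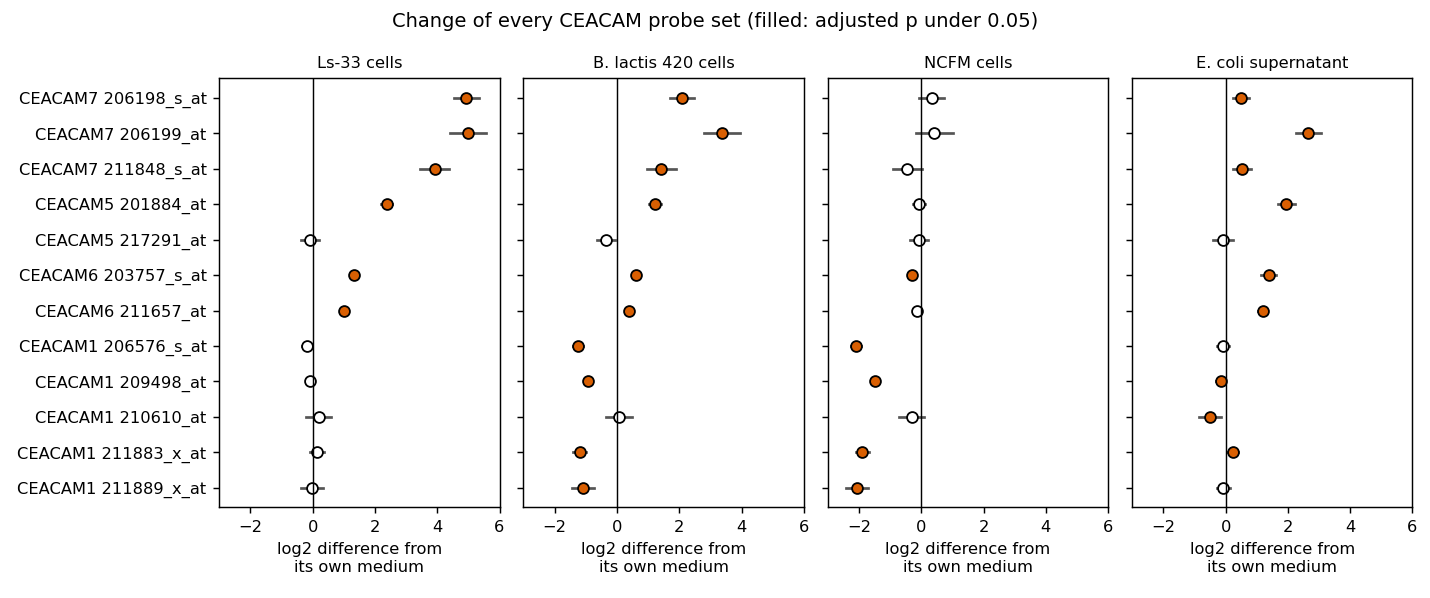
Log2 difference of each of the 12 probe sets from the medium of its own array set, with 95% intervals as lines, for the 3 co-cultures and E. coli supernatant; filled points had an adjusted p under 0.05. CEACAM7 spans from -0.45 to 4.99 in the co-cultures, and the CEACAM1 probe sets lie below 0 with NCFM.

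Comparing the strains directly leaves medium out. The moderated F-test across the 3 co-cultures called 10 of 12 probe sets, where 10.5% of all tested were called; 210610_at and 217291_at were not. Group means ranged by 4.57 for CEACAM7 206199_at, by 2.44 for CEACAM5 201884_at, by 1.14 for CEACAM6 211657_at and by 1.40 for CEACAM1 209498_at (limma adjusted p = 6.69e-09, 1.06e-11, 3.75e-10 and 2.31e-11). Each of these 10 was highest with Ls-33, intermediate with B. lactis 420 and lowest with NCFM, CEACAM1 included.

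Each step of that order was called for the same number of probe sets. Ls-33 over NCFM gave 10 higher and 0 lower (7.68% and 4.25% of all tested), Ls-33 over B. lactis 420 gave 10 and 0 (1.51% and 1.28%) and B. lactis 420 over NCFM gave 10 and 0 (2.37% and 0.491%). Between Ls-33 and B. lactis 420, CEACAM7 206199_at differed by 1.62 ± 0.28, CEACAM5 201884_at by 1.16 ± 0.09, CEACAM6 211657_at by 0.61 ± 0.06 and CEACAM1 209498_at by 0.82 ± 0.06 (SE, limma adjusted p = 0.00320, 4.53e-07, 4.38e-06 and 1.50e-07). With eBayes run without its trend, CEACAM7 206199_at and CEACAM1 211889_x_at missed the threshold (adjusted p = 0.0586 and 0.0638). Between B. lactis 420 and NCFM the same probe sets differed by 2.95, 1.28, 0.52 and 0.58. CEACAM1 211889_x_at, at 0.98, lost its call there without the second NCFM array (0.62, adjusted p = 0.0555), without the trend (adjusted p = 0.0749) and in a fit of only the groups compared (adjusted p = 0.0580).

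With cell-free supernatants every member gene had probe sets called higher than in 8 h medium, and no difference among strains was detected. Time differs in these comparisons, at 24 h against 8 h, and time, broth and bacterial products cannot be told apart. The sizes depend on the control: against the 24 h medium of the E. coli array set, CEACAM5 201884_at differed by 2.03 to 2.10 with the 3 supernatants, CEACAM7 206199_at by 2.14 to 2.65 and CEACAM1 209498_at by 1.15 to 1.27, where array set and treatment cannot be told apart. CEACAM6 211657_at read 11.79 and 11.72 with Ls-33 supernatant, 11.75 and 11.84 with that of B. lactis 420 and 11.82 and 11.84 with that of NCFM, against 11.19 and 11.13 in 8 h medium. All 6 supernatant arrays stood above medium, and it rose by 0.59, 0.64 and 0.67 (limma adjusted p = 3.04e-06, 2.59e-06 and 1.62e-06). CEACAM5 201884_at rose by 0.58, 0.51 and 0.55 in the same order of strains (limma adjusted p = 4.70e-04, 0.00181 and 0.00108).

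CEACAM1, lower with live NCFM and B. lactis 420, was higher with their supernatants by most of its probe sets. Probe set 209498_at read 11.62 and 11.54 with Ls-33 supernatant, 11.60 and 11.53 with that of B. lactis 420 and 11.67 and 11.70 with that of NCFM, against 11.17 and 11.19 in 8 h medium. It rose by 0.40, 0.38 and 0.50 ± 0.06 (SE, limma adjusted p = 2.33e-04, 4.52e-04 and 3.57e-05), with no overlap between the arrays. CEACAM7 206199_at read 5.81 and 5.52 with Ls-33 supernatant, 5.61 and 4.71 with that of B. lactis 420 and 5.40 and 5.79 with that of NCFM, against 4.62 and 3.74 in 8 h medium. It rose by 1.49, 0.98 and 1.42 (limma adjusted p = 0.00225, 0.0359 and 0.00460). These calls rest on the second medium array: without it the differences were 1.05, 0.54 and 0.98 (adjusted p = 0.0556, 0.377 and 0.0965). The B. lactis 420 call was also lost without the first B. lactis 420 supernatant array (0.53, adjusted p = 0.376), and the NCFM call without the second NCFM supernatant array (1.22, adjusted p = 0.0619). Without the eBayes trend both of these CEACAM7 206199_at calls were lost (adjusted p = 0.128 and 0.0508), and in a fit of only the groups compared that of B. lactis 420 was (adjusted p = 0.0983). The other CEACAM7 probe sets were called less often. With Ls-33, B. lactis 420 and NCFM supernatant 206198_s_at differed by 0.97, 0.89 and 0.63 (limma adjusted p = 0.00269, 0.00616 and 0.0547). In the same order 211848_s_at differed by 0.58, 0.55 and 0.20 without a call (adjusted p = 0.119, 0.150 and 0.706). Probe set 206198_s_at lost its B. lactis 420 call without the second medium array (0.85) or the second supernatant array of that strain (0.77). Its Ls-33 call was lost without the second Ls-33 supernatant array (0.76). Its NCFM value became a call with the floor at the 60th percentile (limma adjusted p = 0.0352). It did so too without the trend and with only the groups compared (adjusted p = 0.0493 and 0.0420).

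Over the 12 probe sets, 9 were called higher and 0 lower with Ls-33 supernatant (4.44% and 3.90% of all tested), 8 and 0 with B. lactis 420 supernatant (3.31% and 4.68%) and 8 and 0 with NCFM supernatant (3.06% and 2.79%). Without the second medium array the count with B. lactis 420 supernatant was 5. The F-test among the 3 supernatants called 0 of 12 by limma, with 0 at an unadjusted p under 0.05 and adjusted p of 0.724 to 0.970, where 0.0183% of all tested were called. For CEACAM7 206199_at the difference between Ls-33 and NCFM supernatant was 0.07 (95% interval -0.51 to 0.66), and for CEACAM5 201884_at 0.03 (-0.16 to 0.22). That bounds the CEACAM5 difference well below the 2.44 seen between the same strains as live cells. The interaction of strain with format, which asks whether strains differ in the same way as live cells and as supernatants, called 10 of 12 probe sets, against 2.90% of all tested.

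The supernatant of E. coli O157:H7 was accompanied by higher CEACAM5, CEACAM6 and CEACAM7 against its own 24 h medium. CEACAM7 206199_at read 5.60, 5.53 and 5.89 with E. coli supernatant, against 2.97, 2.77 and 3.32 in 24 h medium, with no overlap. It rose 6.32-fold (2.66 ± 0.18 SE, limma adjusted p = 5.14e-08). CEACAM5 201884_at read 8.64, 8.50 and 8.62 with E. coli supernatant, against 6.38, 6.64 and 6.88 in 24 h medium. It rose 3.87-fold (1.95 ± 0.13, limma adjusted p = 3.95e-08). CEACAM6 211657_at read 12.06, 12.19 and 12.05 with E. coli supernatant, against 10.76, 10.99 and 10.96 in 24 h medium, and rose 2.29-fold (1.20 ± 0.07, limma adjusted p = 8.05e-09). For these 3 probe sets every treated array stood above every medium array. How often arrays separate in this way, here or in the comparisons above, was not counted over all probe sets.

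Of the other probe sets of those genes, CEACAM6 203757_s_at rose by 1.38 and CEACAM7 211848_s_at by 0.53 (limma adjusted p = 2.01e-07 and 0.00524), and CEACAM5 217291_at differed by -0.09 (adjusted p = 0.649). CEACAM7 206198_s_at averaged 2.61 with E. coli supernatant, against 2.12 in 24 h medium, with a floor of 2.31. It passed the filter only through the treated arrays, so its difference of 0.49 is given as a value and its call supports nothing. CEACAM1 probe sets did not move as 1 gene. Probe set 209498_at read 10.26, 10.22 and 10.28 with E. coli supernatant, against 10.44, 10.39 and 10.40 in 24 h medium, a difference of -0.16 ± 0.06 (SE, limma adjusted p = 0.0410). Probe set 210610_at differed by -0.50 and 211883_x_at by 0.24 (adjusted p = 0.0183 and 0.0271), while 206576_s_at and 211889_x_at differed by -0.09 and -0.07 without a call. None of these 3 CEACAM1 calls was stable: without the second E. coli supernatant array they had adjusted p of 0.132, 0.0740 and 0.139. In all, 7 of 12 probe sets were called higher, 206198_s_at among them, and 2 lower, where 27.1% and 25.8% of all tested were called, and without that array 5 were called.

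The pattern of each gene was shared by its own probe sets to different degrees. Over the 14 arrays of the probiotic set, 206576_s_at, 209498_at and both _x_at probe sets of CEACAM1 correlated at 0.98 to 1.00 and 210610_at with them at 0.77 to 0.81. The 2 CEACAM6 probe sets correlated at 0.98 and the 3 of CEACAM7 at 0.92 to 0.98. Across genes, CEACAM5 201884_at correlated with the CEACAM7 probe sets at 0.97 to 0.98 and with those of CEACAM6 at 0.78 to 0.83. CEACAM6 probe sets correlated with those of CEACAM7 at 0.69 to 0.78 and with the 5 of CEACAM1 at 0.57 to 0.67. CEACAM1 probe sets correlated with those of CEACAM7 at -0.03 to 0.21 and with CEACAM5 201884_at at 0.09 to 0.26. These values describe 14 arrays in 7 groups that share a labelling input and an array set, and are not a test.

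Among 13755 other named genes, those whose pattern over the 14 arrays was most like each member's were named. For CEACAM5 these were NAMPT, CES1, LRG1 and CEACAM7, at Pearson r of 0.98, 0.98, 0.98 and 0.97. For CEACAM7 they were CEACAM5, TNFRSF9, LRG1 and NCOA7 at 0.97, 0.97, 0.97 and 0.96. For CEACAM6 they were TFF1, KRT20, OAS1 and PROCR at 0.96, 0.95, 0.95 and 0.94. CEACAM1 was most like GFPT1, EGLN3, SLC15A1 and SERP1, at 0.97, 0.97, 0.97 and 0.96.

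CEACAM8, the relative that marks granulocytes, was read at 8.05 on average by 206676_at, while 5 of the 9 leukocyte markers were below the floor and ITGAM and CD14, among others, were above it. It read 8.16 and 8.06 with Ls-33 cells, 7.34 and 7.64 with B. lactis 420 cells and 7.58 and 7.47 with NCFM cells, against 8.58 and 8.60 in 8 h medium. It fell by 0.47, 1.10 and 1.06 (limma adjusted p = 0.00136, 1.32e-07 and 1.94e-07). With the supernatants of Ls-33, B. lactis 420 and NCFM it rose by 0.69, 0.45 and 0.49 (limma adjusted p = 2.43e-04, 0.00860 and 0.00561). With E. coli supernatant it read 6.43, 6.74 and 6.58, against 7.49, 7.93 and 7.68 in 24 h medium, and fell by 1.12 (limma adjusted p = 1.30e-05). Over the 14 probiotic arrays it correlated with the CEACAM1 probe sets at 0.76 to 0.93 and with those of CEACAM7 at -0.32 to -0.20. Whether its probes read CEACAM1 transcripts was not tested. Of the relatives of the family, 8 of 14 measured genes passed the filter in the probiotic set. Besides CEACAM8, PSG1, of the pregnancy-specific glycoproteins, rose by 0.57 with NCFM cells (limma adjusted p = 0.0454), and no other was called in a co-culture. PSG1 averaged 3.04 with NCFM cells, against 2.47 in 8 h medium, close to the floor of 2.34, so the size of its rise is uncertain.

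Genes of pathways around the family changed in both directions. By 1 probe set per gene, 15.4% of 13756 genes were called higher and 15.7% lower with Ls-33 cells, 14.5% and 13.7% with B. lactis 420 cells, and 13.8% and 15.2% with NCFM cells. Of 11 partners of the CEACAM1 tail, 4 were higher and 1 lower with Ls-33, 3 and 1 with B. lactis 420, and 2 and 2 with NCFM. The kinase gene SRC fell by 1.53, 1.31 and 1.38 with the 3 strains, and the adaptor SHC1 rose by 0.42, 0.39 and 0.32. PTPN6, whose phosphatase binds the CEACAM1 tail, rose by 0.47 with B. lactis 420 and by 0.58 with NCFM. Of 25 genes of GPI anchor synthesis, 3 were higher and 5 lower with Ls-33, 3 and 5 with B. lactis 420, and 3 and 4 with NCFM. PIGW, an acyltransferase of the pathway, rose by 0.99, 0.92 and 0.76. Among those called lower, PIGP differed by -0.60 with Ls-33, PIGV by -0.57 with B. lactis 420 and PIGN by -1.05 with NCFM.

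Other surface proteins held by a GPI anchor changed in both directions, and the shares over all genes given above apply to these counts too. Of 25 tested, 6 were higher and 7 lower with Ls-33 cells, 4 and 8 with B. lactis 420 cells, and 3 and 10 with NCFM cells. The folate receptor gene FOLR1 fell by 0.86, 0.74 and 0.67, and CD55, the decay-accelerating factor, rose by 0.92 with Ls-33. Of 26 other adhesion genes of the immunoglobulin superfamily, 3 were higher and 6 lower with Ls-33, 4 and 6 with B. lactis 420, and 4 and 8 with NCFM. ICAM1, an integrin ligand, rose by 1.86 with Ls-33 and fell by 1.32 with NCFM. With E. coli supernatant 31.9% of 13643 genes were higher and 24.9% lower. The counts there were 3 and 2 of 11 tail partners, 7 and 10 of 25 GPI synthesis genes, 6 and 8 of 24 other GPI-anchored genes and 4 and 9 of 25 other adhesion genes. With E. coli supernatant CD55 rose by 1.38 and PTPN6 fell by 0.98.

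Genes around the family on chromosome 19 were called in both directions, and their counts were not tested against the shares over all genes. Of 33 neighbours with a probe set, 21 lay between the outer members and 6 on each side, and 25 were tested in the probiotic set. With Ls-33 cells 3 were higher and 5 lower, where 15.4% and 15.7% of all genes were called. With B. lactis 420 cells 1 and 4 were (14.5% and 13.7% of all genes), and with NCFM cells 2 and 5 (13.8% and 15.2%). The chemokine gene CXCL17 rose by 0.95 with Ls-33 and fell by 1.07 with NCFM (limma adjusted p = 0.00176 and 5.75e-04). With E. coli supernatant 6 of 22 were higher and 6 lower, where 31.9% and 24.9% of all genes were called. The repressor gene ERF rose by 2.23 there. CEACAM8, and PSG genes, stand both among the relatives and among the neighbours.

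**Figure D4:**
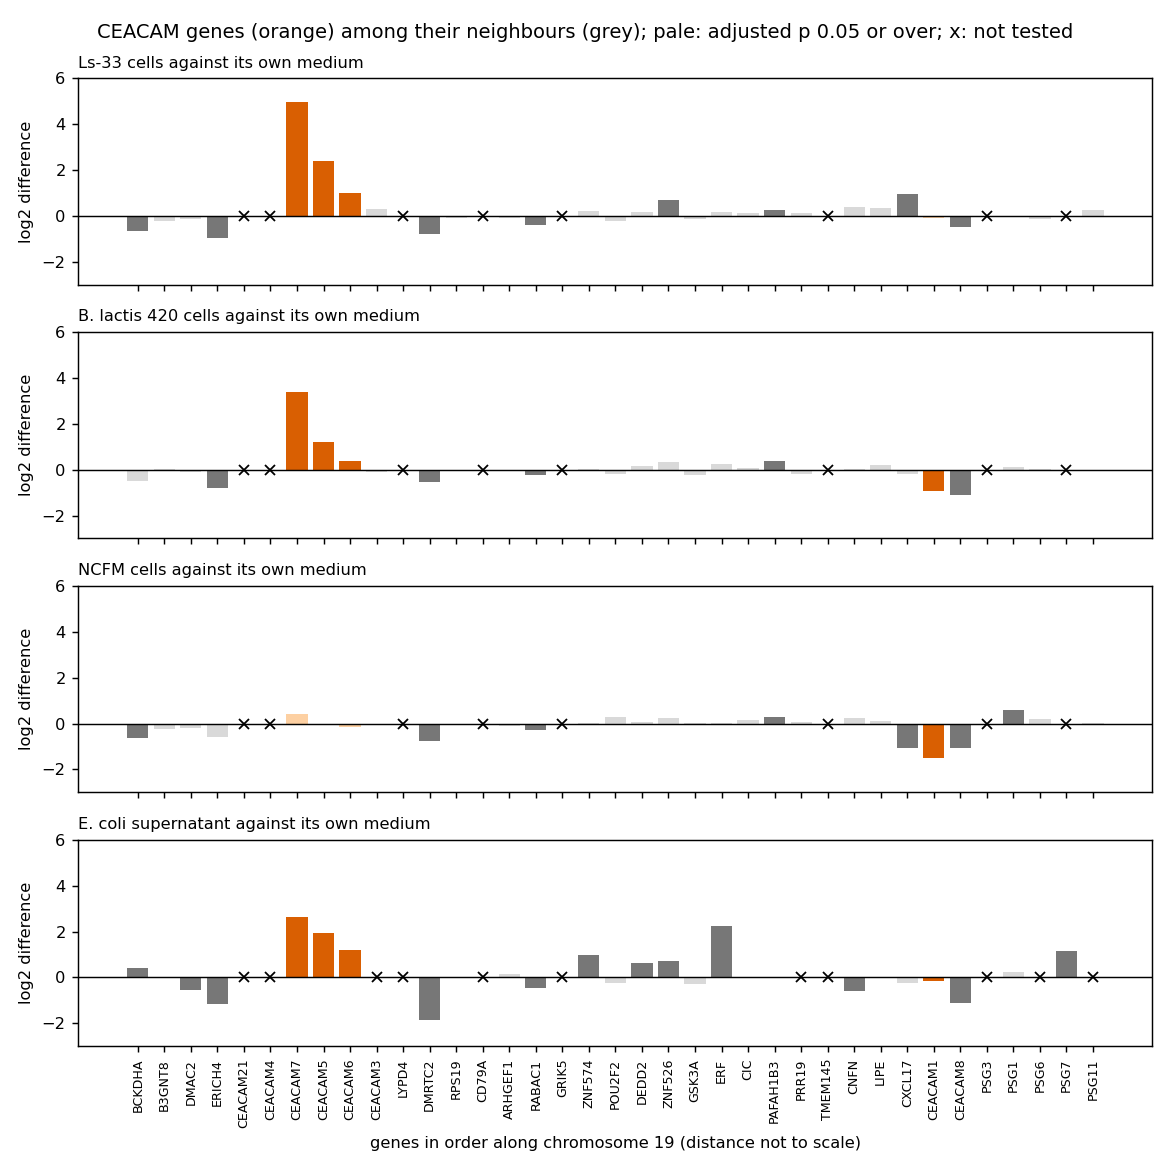
Log2 difference from medium of the brightest probe set of each gene, in chromosomal order, for the 3 co-cultures and E. coli supernatant, 1 panel each; CEACAM members are orange, neighbours grey, pale bars had an adjusted p of 0.05 or over, and x marks genes that were not tested. CEACAM7, CEACAM5 and CEACAM6 stand next to each other with rises of 4.99, 2.37 and 1.00 with Ls-33 cells.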

How the data were processed

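Expression of Caco-2 cells was measured on Affymetrix HG-U133 Plus 2.0 arrays. The authors summarised each probe set on a log2 scale with RMA, per the submitters' processing notes. Whether both array sets were normalized together is not given in the sources used here. Only these values were used, so background correction could not be varied and the number of arrays limits the precision. Groups came from the labels. Platform annotation gave 1 symbol to 41091 of 54613 non-control probe sets, several to 1801 and none to 11721.

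Each probe set was tested on its own if its mean in the fit was at or above the 40th percentile, which left 32768 in either array set. The tests were moderated contrasts and F-tests (limma 3.58.1, R 4.3.3, eBayes with a trend) over the 14 probiotic or the 6 E. coli arrays. Benjamini-Hochberg adjustment ran over all probe sets tested, and calls are adjusted p-values under 0.05. Gene lists used the probe set of highest mean per gene, without _x_at where possible. All member probe sets are described for the co-cultures and E. coli supernatant. For probiotic supernatants the differences given are those of the brightest probe set of each gene and of all CEACAM7 probe sets, and the counts cover all 12. From a list, up to 3 called genes of lowest adjusted p in a comparison could be named, and so were the 4 genes most like each member by Pearson r. The members and lists were chosen with earlier results of these data known. Promoters and gene order came from RefSeq tables of GRCh38.p14. Results were recomputed with every probe set tested, with the floor raised to the 60th percentile, with only the groups of a comparison in the fit (for E. coli, all 20 arrays), with the eBayes trend dropped, and with quantile normalization, 1 probe set per gene, no _x_at probe sets, 24 h medium as the control of supernatants, a replicate block and each array left out in turn. The fits were tested on simulated data.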

Additional observations from a re-analysis of the deposited data

Results flagged for a closer look

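For 10 of the 12 probe sets the differences among strains were not the same with live cells as with supernatants, by the interaction of strain and format in limma. The adjusted p was 2.20e-09 for CEACAM6 203757_s_at and 6.74e-08 for CEACAM6 211657_at. It was 4.59e-09 for CEACAM5 201884_at. For CEACAM7 it was 2.05e-08 with 206198_s_at, 1.97e-06 with 206199_at and 7.42e-07 with 211848_s_at. For CEACAM1 it was 4.59e-09 with 206576_s_at, 5.69e-09 with 209498_at, 1.38e-07 with 211883_x_at and 3.16e-04 with 211889_x_at. Live cells and supernatants also differ in time, at 8 h and 24 h, so format and time cannot be told apart.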

How the results depend on the processing

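Over 1928 recomputed values of single probe sets, 1853 kept their direction and their side of the threshold, 44 lost a call, 15 gained one and 16 changed sign. None of those that changed sign was called in the fit as reported. Without leaving out an array these were CEACAM5 217291_at between Ls-33 and NCFM cells (0.0177 with joint quantile normalization) and CEACAM1 210610_at with 24 h medium as control, for NCFM supernatant (-0.0484) and B. lactis 420 supernatant (-0.0864). Leaving out each array in turn, CEACAM5 201884_at with NCFM cells ranged from -0.187 to 0.0532 and CEACAM7 206199_at from -0.0208 to 0.860. CEACAM1 210610_at ranged from -0.145 to 0.279 with B. lactis 420 cells, and from -0.0796 to 0.345 between Ls-33 and B. lactis 420 cells. CEACAM1 211883_x_at and 211889_x_at with Ls-33 cells ranged from -0.0372 to 0.316 and from -0.205 to 0.167. CEACAM5 217291_at ranged from -0.0618 to 0.0402 between Ls-33 and NCFM cells, from -0.140 to 0.0367 with B. lactis 420 supernatant and from -0.189 to 0.0881 with E. coli supernatant. The cause was not tested. Where an array is left out, the remaining one of a group of 2 is assumed to vary like the other groups.

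With 1 probe set per gene, which leaves 4, they were 4 in each comparison except 3 with Ls-33 cells against medium, 1 with NCFM cells against medium and 0 between supernatant strains, where it was 0 as reported. Without _x_at probe sets the count with NCFM cells was 3. With 24 h medium as control the count was 10 with each probiotic supernatant, and differences of CEACAM5 201884_at, CEACAM7 206199_at and CEACAM1 209498_at grew by over 1.5 times. With eBayes without a trend the count with B. lactis 420 supernatant was 5. Leaving out each array gave 5 to 7 with B. lactis 420 supernatant, lowest without the second 8 h medium array, and 5 to 9 with E. coli supernatant, lowest without its second array.

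Replicate numbers of the labels did not pair the arrays, since deviations of same-numbered arrays correlated at -0.0978 to 0.0406. With the replicate block the counts were 6 with Ls-33 cells, 10 with B. lactis 420 cells, 5 with NCFM cells and 8 with E. coli supernatant, where CEACAM1 209498_at lost its call (adjusted p = 0.0945). The block changed no other call. Signals near the floor, such as those of CEACAM5 217291_at, limit what these arrays can show.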
